A study of Mus musculus with 8 samples.

Results

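The water and ion complex of the astrocyte endfoot was followed through 9 genes, Aqp4, Kcnj10, Mlc1, Hepacam, Dag1, Dtna, Gja1, Dmd and Utrn. These were picked by name for what their proteins do, with earlier results of these data known. Counts of these genes set beside all genes are thus a description and not a test. Their symbols were matched to Ensembl mouse gene identifiers, and all 9 were found among the 47729 genes counted in neural stem cells (NSCs) and among the 40562 genes counted in astrocyte cultures. RNA sequencing compared S89G-DMP1 with wild type (WT) cells, 3 libraries against 3 for NSCs and 1 against 1 for astrocytes. S89G-DMP1 mice carry a knock-in that swaps a serine of dentin matrix protein 1, the attachment point of its sugar chain, for glycine, and WT mice without the knock-in served as controls. All mice were C57BL/6 and 10 weeks old according to the labels. NSCs came from the sub-ventricular zone and grew as neurospheres in DMEM/F12 with N2 supplements, whereas astrocytes came from cortex and grew with serum. The labels do not say whether the NSC triplicates came from separate mice or cultures, so the p-values given here measure only the spread between these libraries, which may be technical. All were bulk samples, in which fewer cells of a type and less RNA per cell cannot be told apart.

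Astrocyte endfeet are the sheet-like process ends that cover brain blood vessels. On the vessel side, dystroglycan (Dag1) holds matrix proteins outside the cell and dystrophin (Dmd) or utrophin (Utrn) inside it, and dystrobrevin (Dtna) and syntrophin attach to these large proteins. This scaffold keeps the water channel aquaporin 4 (Aqp4) and the potassium channel Kir4.1 (Kcnj10) at the vessel. MLC1 and its adhesion partner GlialCAM (Hepacam) form a further membrane complex linked to ion and water balance, and connexin 43 (Gja1) joins neighbouring astrocytes through gap junctions.

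In the S89G-DMP1 NSCs, Kcnj10, Mlc1, Gja1 and Dmd were higher than in WT, by 1.44-fold to 1.88-fold, and Dag1 was lower. Hepacam, Dtna and Utrn did not pass the test, and Aqp4 had too few reads to be tested. These values rest on 2354615 to 2588130 counted reads per NSC library. Counts were scaled to CPM, the usual per-million scale, on TMM-scaled library totals, and genotypes were compared by the quasi-likelihood test of edgeR over the 11194 genes that passed a filter on low counts. Adjusted p-values are Benjamini-Hochberg values over these genes, and SE is the standard error of a log2 fold change. With an adjusted p under 0.05 as a call, 15.8% of all tested genes were called, 7.08% higher and 8.76% lower in S89G-DMP1. Of the 8 endfoot genes tested, 4 were called higher and 1 lower, and their median log2 fold change was 0.22, beside 0.00 for all tested genes.

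**Figure D1:**
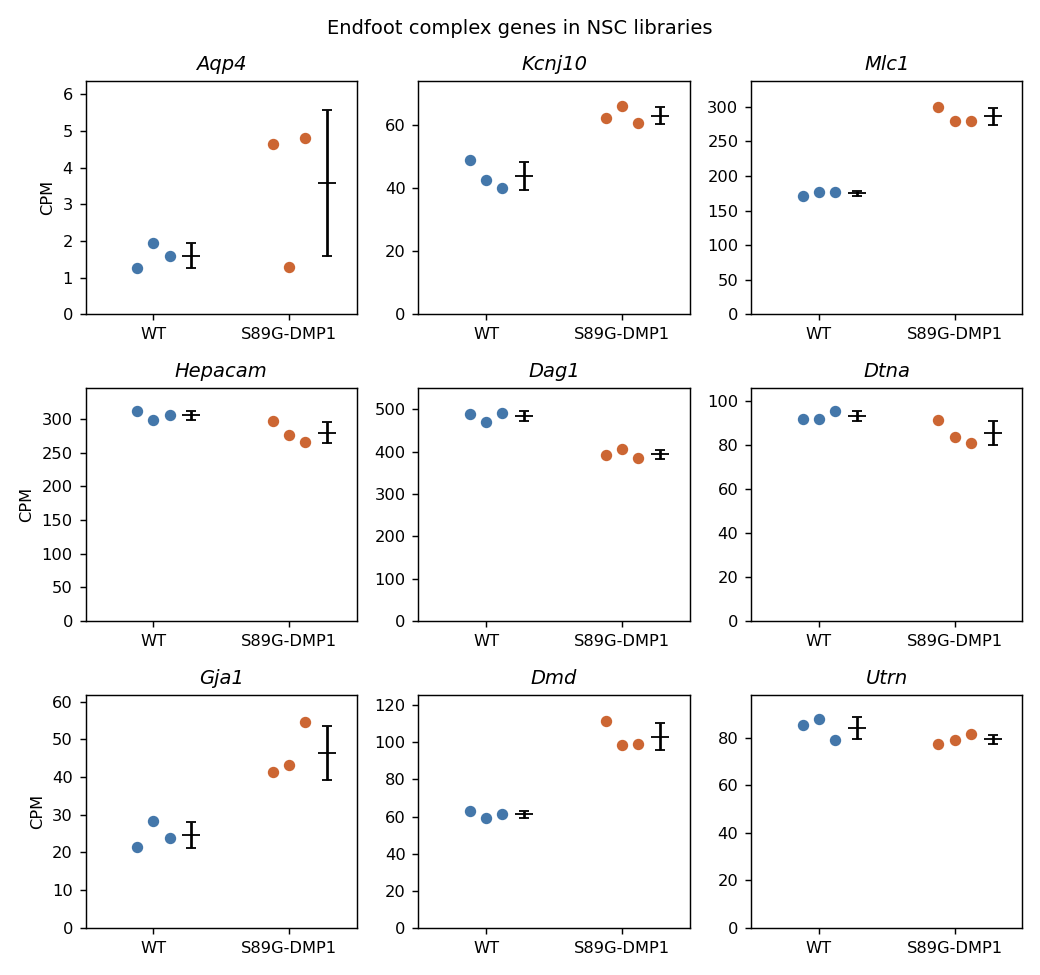
CPM of the 9 endfoot genes in the NSC libraries, with a point for each library (WT left, S89G-DMP1 right) and the mean ± SD of 3 libraries as a bar. Each y axis starts at 0, and the points of the genotypes do not overlap for Kcnj10, Mlc1, Hepacam, Dag1, Dtna, Gja1 and Dmd.

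Aqp4 (ENSMUSG00000024411, chr18:15389496-15410982, minus strand) held 3, 5 and 4 counts in WT NSCs and 11, 3 and 12 in S89G-DMP1 NSCs. The second S89G-DMP1 library lay within the WT range, so the genotypes overlapped. The means were 1.601 ± 0.339 CPM (SD, n = 3) and 3.58 ± 1.99 CPM (SD, n = 3). Without the filter on low counts the log2 fold change was 1.15 (SE 0.48), and it did not pass over 21433 genes (adjusted p = 0.151, edgeR). Leaving out S89G-DMP1 replicate 2 let Aqp4 through the filter and over the threshold, with a log2 fold change of 1.52 (adjusted p = 0.0316, edgeR).

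Kcnj10 (ENSMUSG00000044708, chr1:172341210-172374085, plus strand) encodes the inward rectifier through which astrocytes take up potassium. Its counts were 116, 110 and 100 in WT NSCs and 148, 154 and 151 in S89G-DMP1 NSCs, with no overlap between genotypes. The means were 43.9 ± 4.58 CPM (SD, n = 3) and 62.9 ± 2.72 CPM (SD, n = 3), a log2 fold change of 0.52 (SE 0.11, adjusted p = 2.5e-04, edgeR). Kcnj10 stayed far above Aqp4 in all 6 NSC libraries, by counts that were not corrected for length.

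Mlc1 (ENSMUSG00000035805, chr15:88955884-88979007, minus strand) and Hepacam (ENSMUSG00000046240, chr9:37367351-37386575, plus strand) encode partners of one membrane complex, and their transcripts went apart in NSCs. Mlc1 had 406, 454 and 444 counts in WT, compared with 713, 652 and 696 in S89G-DMP1. It went from 174.9 ± 3.35 CPM (SD, n = 3) to 286.2 ± 12.3 CPM (SD, n = 3), a rise of 0.71 on the log2 scale (SE 0.06, adjusted p = 2.4e-14, edgeR). This was the smallest adjusted p of the 8 tested endfoot genes. Hepacam had 741, 769 and 767 counts in WT and 705, 647 and 662 counts in S89G-DMP1, so every mutant library was below every WT library, by a small margin. Its means were 305.8 ± 6.78 CPM (SD, n = 3) and 279.8 ± 15.9 CPM (SD, n = 3), and its log2 fold change of -0.13 (SE 0.06) did not pass (adjusted p = 0.141, edgeR).

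Dag1 (ENSMUSG00000039952, chr9:108204634-108263958, minus strand), the matrix receptor, was the 1 endfoot gene called lower in NSCs. It had 1158, 1209 and 1230 counts in WT and 932, 947 and 957 counts in S89G-DMP1, with a clear gap between genotypes. The means were 483.0 ± 11.6 CPM (SD, n = 3) and 393.9 ± 10.8 CPM (SD, n = 3), a log2 fold change of -0.29 (SE 0.05, adjusted p = 2.9e-05, edgeR). Dtna (ENSMUSG00000024302, chr18:23415135-23659715, plus strand), whose protein alpha-dystrobrevin binds syntrophins, had 218, 236 and 239 counts in WT and 217, 195 and 202 in S89G-DMP1. In CPM the genotypes did not overlap, but the lowest WT library (91.7 CPM) and the highest mutant library (91.4 CPM) nearly met. Its log2 fold change was -0.13 (SE 0.09, adjusted p = 0.361, edgeR). Dtna shares 90 exon bases with an antisense gene that has no row in the tables used here, and whether counting used the strand is not given in the sources used here.

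Dmd (ENSMUSG00000045103, chrX:82948870-85206141, plus strand) and Utrn (ENSMUSG00000019820, chr10:12382188-12869365, minus strand) encode the related proteins dystrophin and utrophin, which take the same place in the scaffold. Dmd counts were 150, 152 and 153 in WT and 265, 230 and 247 in S89G-DMP1 NSCs, so the WT libraries were almost equal and every mutant library was above them. The means were 61.1 ± 2.08 CPM (SD, n = 3) and 103.0 ± 7.43 CPM (SD, n = 3), a log2 fold change of 0.75 (SE 0.09, adjusted p = 1.3e-09, edgeR). Utrn counts were 203, 226 and 198 in WT and 184, 185 and 203 in S89G-DMP1, and the genotypes overlapped. The log2 fold change of Utrn was -0.08 (SE 0.09, adjusted p = 0.597, edgeR). Dmd makes several proteins of different length from separate start sites, and counts per gene do not tell which of them changed.

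Gja1 (ENSMUSG00000050953, chr10:56377330-56402513, plus strand), the main connexin of astrocyte gap junctions, had the largest log2 fold change of the 8 tested genes. It had 51, 73 and 60 counts in WT and 98, 101 and 136 counts in S89G-DMP1 NSCs. The third mutant library was the highest, and all mutant libraries were above all WT libraries. The means were 24.6 ± 3.48 CPM (SD, n = 3) and 46.4 ± 7.17 CPM (SD, n = 3), a log2 fold change of 0.91 (SE 0.14, adjusted p = 4.8e-07, edgeR). Gjb6, which encodes connexin 30, the other astrocyte connexin of mature tissue, had 0 counts in all 6 NSC libraries, and 3 counts per library is the limit that a count of 0 allows.

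Counting the genes whose libraries separated, 7 of the 8 tested endfoot genes showed no overlap between genotypes in NSCs, 4 of them higher and 3 lower in S89G-DMP1, beside 30.7% of all tested genes. All 5 calls were kept with DESeq2 (which called 7.6% of tested genes), with other scalings and filters, and with each library left out in turn. Of these 5, limma on the authors' TPM values called Mlc1 alone. On log2(TPM + 1), Kcnj10 (0.46), Gja1 (0.82) and Dmd (0.85) lost the call at log2 fold changes near those from counts. Dag1 itself shrank, from -0.29 to -0.08 (adjusted p = 0.921, limma), so its fall depended on the measure used.

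**Figure D2:**
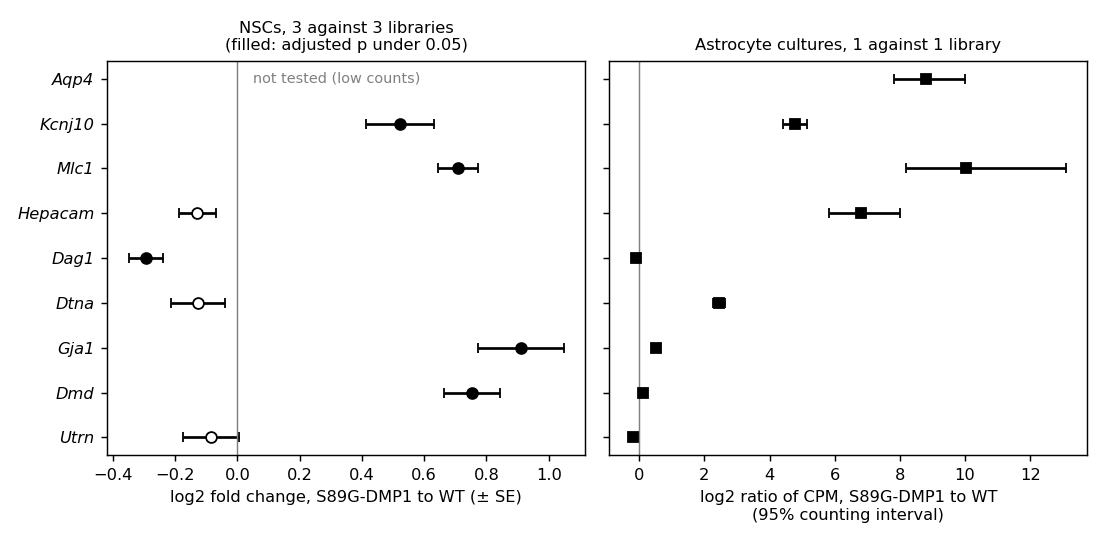
Left, log2 fold change of S89G-DMP1 to WT in NSCs with its SE (x axis), filled where the adjusted p is under 0.05. Right, log2 ratio of CPM in the astrocyte cultures, computed without a prior count, with its 95% counting interval, where Mlc1 (1055-fold) and Aqp4 (445-fold) lie farthest right and Dag1, Dmd and Utrn lie near 0.

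The stretches just before the start sites of Kcnj10, Gja1 and Dmd are shown because these genes rose together in S89G-DMP1 NSCs. The window of Mlc1, the other gene that rose, lies within annotated exons and is not shown. Each sequence covers the 250 bases before a RefSeq start in GRCm38.p6, on the plus strand, and capitals mark matches on either strand to 3 motifs of core promoters. The TATA box was searched as TATAAA. The GC box, bound by factors of the SP family, was searched as GGGCGG. The CCAAT box was searched by the letters of its name.
Kcnj10, chr1:172340960-172341209: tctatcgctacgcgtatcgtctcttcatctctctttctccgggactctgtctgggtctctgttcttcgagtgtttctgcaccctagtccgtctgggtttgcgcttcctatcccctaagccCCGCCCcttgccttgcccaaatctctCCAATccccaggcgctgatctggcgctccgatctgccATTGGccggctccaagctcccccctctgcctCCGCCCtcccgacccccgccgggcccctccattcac
Gja1, chr10:56377050-56377299: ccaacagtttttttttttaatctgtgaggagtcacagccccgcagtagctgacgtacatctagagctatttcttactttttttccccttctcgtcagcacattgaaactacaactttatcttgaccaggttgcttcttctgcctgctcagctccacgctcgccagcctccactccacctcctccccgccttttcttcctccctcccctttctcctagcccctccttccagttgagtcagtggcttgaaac
Dmd, upstream start, chrX:82948620-82948869: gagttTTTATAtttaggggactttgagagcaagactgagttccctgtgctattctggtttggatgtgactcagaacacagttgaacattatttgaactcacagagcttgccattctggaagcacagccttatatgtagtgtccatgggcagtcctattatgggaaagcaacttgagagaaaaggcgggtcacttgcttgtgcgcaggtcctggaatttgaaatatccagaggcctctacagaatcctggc
Dmd, internal start, chrX:85048045-85048294: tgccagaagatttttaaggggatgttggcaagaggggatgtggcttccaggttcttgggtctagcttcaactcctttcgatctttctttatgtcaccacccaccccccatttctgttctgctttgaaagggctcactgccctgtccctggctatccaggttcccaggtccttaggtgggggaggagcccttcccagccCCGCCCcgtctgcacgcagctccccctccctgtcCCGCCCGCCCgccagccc
The Kcnj10 window held 2 CCAAT boxes and 2 GC boxes at 62.0% GC, whereas the Gja1 window, with a GC content a little under the median of all windows, held none of these motifs. The upstream Dmd window (45.2% GC) had 1 TATA match, 245 bases before the start and thus far from where a TATA box usually sits. The internal Dmd window (60.0% GC) had 3 GC boxes, of which those 18 and 14 bases before the start overlap each other. No motif was shared by all 4 windows. Over 32807 windows of the same length in RefSeq, the median GC content was 52.4%, and 12.4% held the TATA box, 33.8% the CCAAT box and 32.7% the GC box. A search for the SOX core ACAATG, the E-box CAGCTG, the STAT motif TTCNNNGAA, the NFI motif (TTGGC and its reverse complement spaced by 5 bases) and the RBPJ motif GTGGGAA, found in 10.7%, 13%, 7.02%, 0.0366% and 5.42% of windows, gave no match in these 4 windows. A match is a description of the letters and was not tested for function.

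Within a library, the ratio of 2 genes does not depend on how libraries are scaled, and 2 pairs of partners were compared in this way after their values had been seen. Counts of Mlc1 relative to Hepacam were 0.548, 0.590 and 0.579 in WT NSCs and 1.01, 1.01 and 1.051 in S89G-DMP1 NSCs. Mlc1 thus went from about 0.6 counts for each Hepacam count to about 1 count. Dmd relative to Utrn was 0.739, 0.673 and 0.773 in WT and 1.44, 1.24 and 1.22 in S89G-DMP1, so Utrn had more counts than Dmd in every WT library and fewer in every mutant library. These counts were not corrected for the different lengths of the genes.

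**Figure D3:**
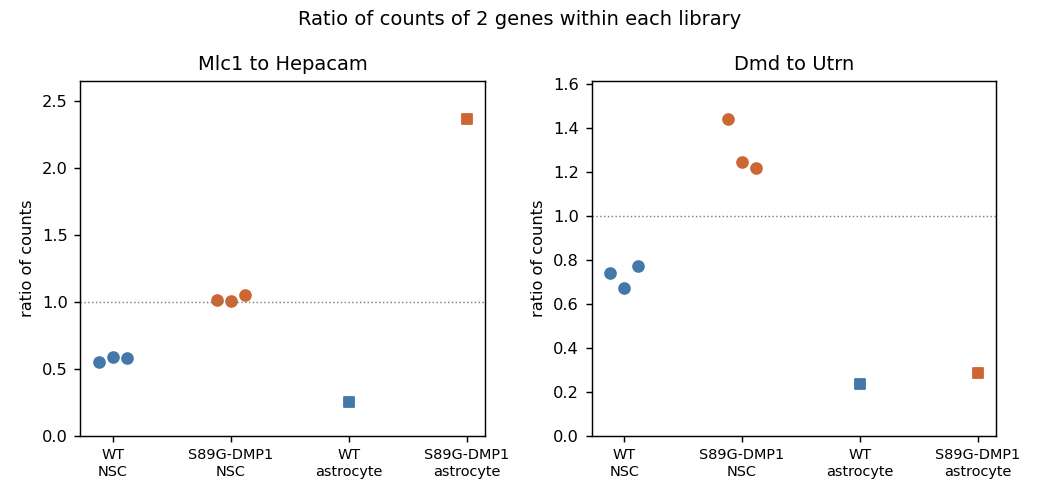
Ratio of counts within each library for Mlc1 to Hepacam (left) and Dmd to Utrn (right), with 1 point per library, circles for NSCs and squares for astrocyte cultures. The Dmd to Utrn ratio lies under the dotted line at 1 in all WT NSC libraries, over it in all S89G-DMP1 NSC libraries, and near 0.2 to 0.3 in both astrocyte libraries, whereas the WT astrocyte point for Mlc1 to Hepacam rests on 2 and 8 counts.

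To compare levels between genes, CPM were divided by the summed exon length of each gene in kilobases. In WT NSCs the order of these levels was Hepacam (91.4 ± 2.03), Dag1 (76.0 ± 1.83), Mlc1 (62.5 ± 1.20), Kcnj10 (8.11 ± 0.847), Dtna (5.49 ± 0.126), Utrn (4.92 ± 0.265), Dmd (2.57 ± 0.0875), Gja1 (2.399 ± 0.339) and Aqp4 (0.257 ± 0.0544 CPM per kilobase, SD, n = 3). Only the neighbours Dmd and Gja1 overlapped. In S89G-DMP1 NSCs, Mlc1 led at 102.2 ± 4.37 CPM per kilobase (SD, n = 3), above Hepacam at 83.6 ± 4.75 and Dag1 at 62.0 ± 1.70, without overlap, and Utrn, Gja1 and Dmd overlapped between 4.33 and 4.64. Other lengths changed most ranks. With the lengths behind the authors' astrocyte FPKM values, 2 of the 9 genes kept their rank in each genotype. Hepacam, Dag1 and Mlc1 were still the highest 3 and Aqp4 the lowest. Dag1 then led in both genotypes, and in S89G-DMP1 it stood at 137.1 above Mlc1 at 102.5 CPM per kilobase, so the lead of Mlc1 was lost.

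The genotypes of the 2 astrocyte libraries rest on their labels alone, since counts do not show the changed base. The library labelled WT held few reads of defining astrocyte genes (8 of Slc1a3, 47 of Aldh1l1 and 90 of Gfap), against 3877, 1792 and 901 in the library labelled S89G-DMP1. Whether the labels match the cultures was not tested, and an exchange of the labels would turn every direction given here for astrocytes.

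Between the astrocyte cultures, 5 endfoot genes stood far higher in S89G-DMP1, namely Mlc1, Aqp4, Hepacam, Kcnj10 and Dtna, whereas Gja1, Dag1, Dmd and Utrn differed by less than 2-fold. With 1 library per genotype there is no replicate check and no test, and intervals cover counting error only. The libraries held 14008670 counted reads in WT and 13016924 in S89G-DMP1. Of the 15680 genes that reached 10 counts in a library, 30.1% differed by at least 2-fold, 17.3% higher and 12.8% lower in S89G-DMP1. Among the endfoot genes, 5 of 9 were at least 2-fold higher and 0 lower, with a median log2 ratio of 2.44 beside 0.01 for all counted genes. Scaling by library size alone in place of TMM moved the median of all genes by 0.288 on the log2 scale. Log2 ratios were computed with a prior count of 2, which draws in the ratios of genes with few counts, and folds are plain ratios of CPM.

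Both channel genes were low in the WT culture. Aqp4 had 8 counts in WT and 4051 in S89G-DMP1 (0.632 and 281 CPM), a ratio of 445 with a 95% exact counting interval of 226 to 1032. Kcnj10 had 62 and 1924 counts (4.90 and 134 CPM), a 27.3-fold difference (95% counting interval 21.2 to 35.7). The order of these channels by counts was also opposite, since Kcnj10 exceeded Aqp4 in the WT culture and Aqp4 exceeded Kcnj10 in the S89G-DMP1 culture.

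The membrane pair was low in the WT culture too. Mlc1 had 2 counts in WT and 2399 in S89G-DMP1 (0.158 and 167 CPM). That is a ratio of 1055, with a counting interval from 292 to 8712 that is wide because the WT value rests on 2 counts. Hepacam had 8 and 1015 counts (0.632 and 70.5 CPM), a ratio of 112 (95% counting interval 56.4 to 259). The intervals of Mlc1 and Hepacam do not overlap. In the S89G-DMP1 culture 2.36 Mlc1 counts were found for each Hepacam count.

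Members of the scaffold were expressed in both cultures. Dag1 had 8186 and 8726 counts (646 and 606 CPM), a log2 ratio of -0.09 that turned to 0.20 with library size alone as the scale. Utrn had 4574 and 4555 counts (361 and 316 CPM), a log2 ratio of -0.19 that likewise turned to 0.10. Neither gene was thus higher or lower in a way that held under both scalings. Dmd had 1066 and 1306 counts (84.2 and 90.7 CPM) and a log2 ratio of 0.11, and its ratio of 1.08 has a counting interval from 0.993 to 1.17. Dmd lies on the X chromosome, and the X-linked Xist was at 961 CPM in the WT and 5.14 CPM in the S89G-DMP1 culture, whereas the Y-linked Ddx3y had 0 and 88.7 CPM. The part of this difference in the Dmd value was not tested. In NSCs Xist overlapped between genotypes. Dtna was the scaffold gene that stood apart, with 277 and 1717 counts (21.9 and 119 CPM), a 5.45-fold difference (95% counting interval 4.80 to 6.21).

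Gja1 had 1165 and 1913 counts in the astrocyte cultures (92.0 and 133 CPM), a 1.44-fold difference (95% counting interval 1.34 to 1.55). Unlike the channel genes, it was well expressed in the WT culture, above its level in either NSC genotype, although the tables were made with different aligners and are set side by side here only as a description. Gjb6 had 1 count in WT and 0 in S89G-DMP1.

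**Figure D4:**
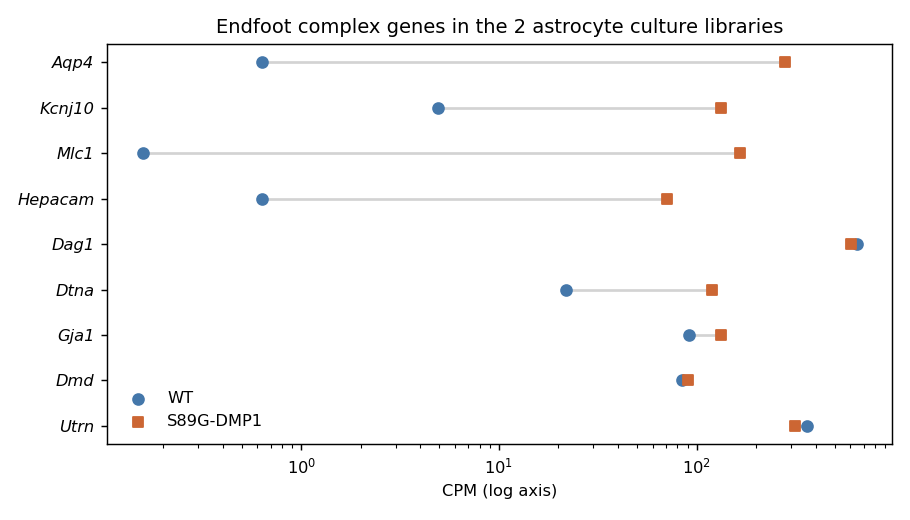
CPM of the 9 endfoot genes in the WT (circles) and S89G-DMP1 (squares) astrocyte culture libraries, on a log axis, with a line joining the libraries for each gene. Aqp4, Kcnj10, Mlc1 and Hepacam lie under 5 CPM in WT and at 70.5 CPM or more in S89G-DMP1, and the points of Dag1, Dmd and Utrn nearly coincide.

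Per kilobase of exon, the WT culture was led by Dag1 (102), Utrn (21.1) and Gja1 (8.97 CPM per kilobase), and Hepacam, Aqp4 and Mlc1 came last, at 0.189 or less. In the S89G-DMP1 culture Dag1 (95.3) was followed by Mlc1 (59.5), Aqp4 (45.1), Kcnj10 (24.7) and Hepacam (21.1 CPM per kilobase), and then by Utrn (18.5), Gja1 (12.95), Dtna (7.04) and Dmd (3.81). Each of these levels comes from 1 library, so no spread can be given. The lower part of the S89G-DMP1 order depended on the gene lengths. With those behind the authors' FPKM values, Dag1, Mlc1 and Aqp4 still led, but Kcnj10 (24.7) and Hepacam (21.2) came last, below Gja1 (42.8), Dmd (31.4), Dtna (29.8) and Utrn (25.5 CPM per kilobase). In the WT culture those lengths exchanged only Utrn and Gja1.

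Markers of other cells moved with these genes. The counts of markers past 2-fold are to be read beside all counted genes, of which 17.3% were higher and 12.8% lower in S89G-DMP1. In the WT culture Glul alone made up 335 of the 421.5 CPM summed over 10 astrocyte markers. The sum was 1136 CPM in the S89G-DMP1 culture, and 7 of 9 counted astrocyte markers were at least 2-fold higher there. Fibroblast and meningeal markers summed to 6387 CPM in the WT and 2110 CPM in the mutant culture, with 10 of 11 at least 2-fold lower. Neural stem cell markers summed to 733.7 CPM in the WT and 2135 CPM in the mutant culture, with 7 of 8 counted at least 2-fold higher, and microglia markers to 616 and 1007 CPM, with 4 of 8 higher and 1 lower. The mural sum (3319 and 4054 CPM) was higher through Acta2 (723 and 2468 CPM), while Pdgfrb (929 and 158 CPM) and Rgs5 (192 and 2.71 CPM) were lower. The endothelial sum (209 and 107 CPM) was lower mainly through Cdh5 (151 and 1.60 CPM), while Slco1a4 was higher (95 and 491 counts). Foxj1 gave nearly all of the ependymal sum in S89G-DMP1 (6.08 and 224 CPM), and Map2 most of the neuron sum there (76.5 and 219 CPM), while Tubb3 was lower (67.1 and 19.4 CPM). Oligodendrocyte markers summed to 52.1 and 91.4 CPM, mostly Cnp in both, and skeletal muscle markers to 33.5 and 2.57 CPM, mostly Des in WT. In NSCs the astrocyte markers summed to 1912 to 1957 CPM in WT and, without overlap, 2444 to 2491 CPM in S89G-DMP1, largely through Aldh1l1. Of these markers, 3 of 8 tested were called higher, beside 7.08% of all tested genes. Neural stem cell markers came to at least 4541 CPM in each NSC library, fibroblast and meningeal markers to at most 29.6 CPM, and Gfap to at most 6 counts. The part of these marker differences in the values of the endfoot genes was not tested.

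Around the complex, 4 lists of related genes were read in the same fits. Over all tested genes, 7.08% were called higher and 8.76% lower. Among dystrophin complex partners, 0 of 6 tested in NSCs were called higher and 2 lower, and the median log2 fold change was -0.16. The sarcoglycan Sgce had 84, 107 and 93 counts in WT and 80, 58 and 63 in S89G-DMP1, a log2 fold change of -0.45 (adjusted p = 0.016, edgeR). The syntrophin Sntb2 had 35, 35 and 36 counts in WT and 27, 21 and 19 in S89G-DMP1, a log2 fold change of -0.61 (adjusted p = 0.0481, edgeR). These calls were fragile. With each library left out in turn, Sntb2 was no longer called in 5 of 6 fits (without any WT replicate or S89G-DMP1 replicate 2 or 3), where its adjusted p reached 0.214. Sgce was no longer called in 3 of 6 fits, without WT replicate 2 or S89G-DMP1 replicate 2 or 3, and reached 0.104.

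Of 17 enzymes that build the matrix-binding sugar chain of dystroglycan, all were tested in NSCs, and 1 was called, lower in S89G-DMP1. This was Pomgnt2, which adds a sugar to the mannose at the root of that chain, with 44, 41 and 50 counts in WT and 23, 23 and 27 in S89G-DMP1. Its log2 fold change was -0.84 (SE 0.20, adjusted p = 0.00177, edgeR). The median of the 17 enzymes was -0.02. With 8.76% of all tested genes called lower, 1 of 17 is no excess.

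Matrix ligands of dystroglycan, with the laminin chains that assemble with them, included 5 of 9 tested genes called lower in NSCs and 0 called higher. The shares over all tested genes were 8.76% lower and 7.08% higher. The median of the list was -0.35 on the log2 scale. Agrn, which encodes agrin, had 1300, 1433 and 1453 counts in WT and 1032, 991 and 916 in S89G-DMP1, a log2 fold change of -0.46 (adjusted p = 1.5e-09, edgeR). Hspg2, which encodes perlecan, had 256, 316 and 308 counts in WT and 212, 176 and 169 in S89G-DMP1, a log2 fold change of -0.61 (adjusted p = 1.9e-07, edgeR). Both separated fully between genotypes, as did the laminin chain Lama4, with 69, 82 and 88 counts against 35, 33 and 41. Lamc1 was called as well, with 489 to 507 counts in S89G-DMP1 against 612 to 682 in WT, and Lamb2 (-0.51) lost its call without WT replicate 1 or 3 or S89G-DMP1 replicate 1 or 2, with an adjusted p of up to 0.153 (edgeR). The receptor Dag1 and the genes Agrn, Hspg2, Lama4 and Lamc1 thus were lower in the same libraries. Lamb2 overlapped between genotypes, with 24.5 CPM in S89G-DMP1 replicate 3 above 22.9 CPM in WT replicate 2.

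Other astrocyte channels, transporters and partners went the other way in NSCs, with 4 of 10 tested genes called higher and 0 called lower. The shares over all tested genes were 7.08% higher and 8.76% lower. The median of the list was 0.19 on the log2 scale. Kcnj16, a subunit that joins Kir4.1 in potassium channels, had 159, 205 and 152 counts in WT and 213, 229 and 251 in S89G-DMP1, a log2 fold change of 0.47 (adjusted p = 1.0e-04, edgeR). The glutamate transporter Slc1a3 (0.20) and the chloride cotransporter Slc12a2 (0.25) were called at smaller log2 fold changes, and Slc12a2 lost its call without WT replicate 1 or S89G-DMP1 replicate 2 (adjusted p of up to 0.223, edgeR). DESeq2 did not call Sntb2, Sgce, Lamb2 or Slc12a2.

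**Figure D5:**
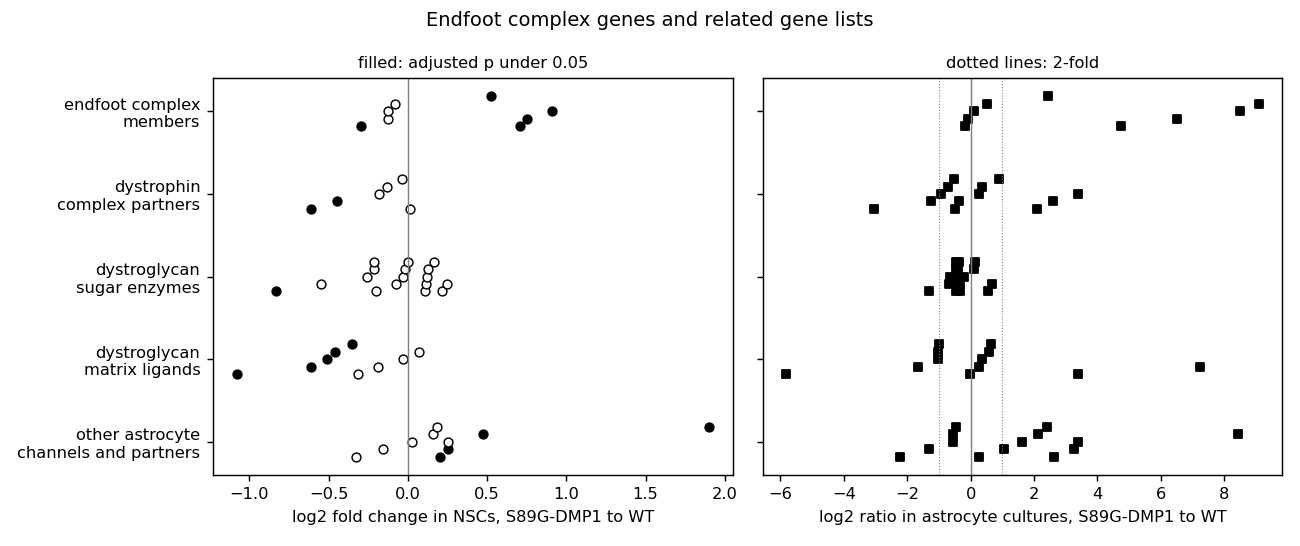
Log2 fold change in NSCs (left, filled where the adjusted p is under 0.05) and log2 ratio in astrocyte cultures (right, dotted lines at 2-fold) for the endfoot genes and 4 related lists, with 1 point per gene and S89G-DMP1 relative to WT. In NSCs the called matrix ligands lie left of 0 and the called channels right of it, and in the cultures Slc1a3 lies with Aqp4 and Mlc1 at log2 ratios over 8.

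In the astrocyte cultures the related lists were mixed, and the values again come from 1 library per genotype. Over all counted genes, 17.3% were at least 2-fold higher and 12.8% lower in S89G-DMP1. Of 14 counted channels and transporters, 8 were at least 2-fold higher and 2 lower in S89G-DMP1, with a median log2 ratio of 1.34. Slc1a3 went from 8 to 3877 counts, Slc1a2, the other astrocyte glutamate transporter, from 51 to 621, and the pump subunit Atp1b2 from 258 to 2852. Of 12 matrix ligands, 2 were at least 2-fold higher and 4 lower, with a median of 0.11, where Lama5 went from 609 to 7346 counts, but Lama1 from 1094 to 20. Among 13 dystrophin complex partners, 3 were at least 2-fold higher and 2 lower (median -0.36, or -0.07 by library size alone), near the shares of all counted genes. Sntb1, at 17 and 90 counts, was among the higher genes, whereas Sntb2 (769 and 452 counts) and Drp2 (231 and 494 counts) stayed within 2-fold. The 17 sugar chain enzymes were the most even, with 1 at least 2-fold lower (Gmppb, 265 and 119 counts), 0 higher, and a median of -0.38 that was -0.09 by library size alone. B3galnt2 (452 and 319 counts) and Dpm1 (76 and 139 counts) were the next farthest from 0.

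The genes whose pattern lay nearest to an endfoot gene were found by the root mean square difference of log2 CPM over all 8 libraries, each gene centred within its table, among 11008 candidates. For Aqp4 these were Foxj1, a regulator of motile cilia (0.397), Mlc1 (0.427) and Slc1a3 (0.461). For Mlc1 they were Slc1a3 (0.275), Foxj1 (0.281) and Olig1, a regulator of the oligodendrocyte lineage (0.311). Both sets rest mainly on the large difference between the astrocyte libraries, with log2 ratios there of 8.42 for Foxj1, 8.43 for Slc1a3 and 8.66 for Olig1. For Gja1 the nearest were Gpx3, an extracellular glutathione peroxidase (0.145), Reln, which encodes the secreted protein reelin (0.170), and Trim66 (0.176), with log2 fold changes in NSCs of 0.76, 0.78 and 0.97 and log2 ratios in astrocytes of 0.20, 0.53 and 0.26.

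Set side by side, Mlc1 and Kcnj10 rose in S89G-DMP1 NSCs and were higher in the S89G-DMP1 astrocyte culture, where Aqp4 was higher too. Gja1 rose in NSCs by a larger log2 fold change (0.91) than the log2 ratio seen in astrocytes (0.53). Dmd rose in NSCs and had a ratio near 1 in astrocytes. The gene that carries the mutation, Dmp1, was sparse throughout, with 16 to 21 counts in WT NSCs, 3 to 6 in S89G-DMP1 NSCs, 2 in the WT and 119 in the S89G-DMP1 astrocyte culture, and counts cannot show the changed base itself.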

How the data were processed

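The authors removed reads with adapters or of low quality. For astrocytes they aligned with Bowtie2 2.0.6 and TopHat2 2.0.9 and deposited counts per gene and FPKM values. For NSCs, per the submitters' processing notes, HISAT2, StringTie and featureCounts were used with GRCm38, and the authors deposited counts and TPM values. The build and counting program of the astrocyte table are not given in the sources used here. The labels state an age of 10 weeks, the methods 3 months for astrocyte cultures.

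Counts were compared in R 4.3.3 with edgeR 4.0.16 (filterByExpr, TMM, quasi-likelihood test, genotype as the only term, Benjamini-Hochberg adjustment, threshold 0.05), which was tested on simulated data. SE is the absolute log2 fold change divided by the square root of the F statistic. Astrocyte libraries were described without a test, with a prior count of 2, for genes that reached 10 counts in a library, and 95% intervals of folds are exact (Clopper-Pearson) on the reads. Positions are those of GRCm38. Alternatives were DESeq2 1.42.0, limma 3.58.1 on log2(TPM + 1) and log2(TPM + 0.1), other scalings and filters, each library left out and a replicate block, and for astrocytes log2(FPKM + 1), log2(FPKM + 0.1), a prior count of 0.5, library size alone and other count minimums. Using the gene lengths behind the FPKM values was chosen after seeing the data.

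The 9 genes and all lists were chosen with earlier results of these data known. Named are all 9 genes, Gjb6 and Dmp1, related genes called in NSCs, the 3 related genes per list with the largest absolute log2 ratio in astrocytes at 50 or more counts in either library, and the 3 genes nearest in pattern to Aqp4, Gja1 and Mlc1. Marker genes, Xist and Ddx3y are named beyond this rule, and a few genes of the related lists are counted but not reported here by name. Promoter windows are those of RefSeq (GRCm38.p6), with 9 windows for 7 genes, and Aqp4 and Dtna were not searched.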

Additional observations from a re-analysis of the deposited data

Results flagged for a closer look

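For 5 genes the libraries of the genotypes did not overlap in NSCs and the difference between the astrocyte libraries had the opposite sign. The difference between cell types was not tested, since the astrocytes have 1 library per genotype. Hepacam had a log2 fold change of -0.13 in NSCs, which did not pass the test there, and a log2 ratio of 6.50 in astrocytes. Dtna had -0.13 in NSCs, also without passing, and 2.44 in astrocytes. Lama4 (-1.08 and 0.57), Lamc1 (-0.35 and 0.26) and Agrn (-0.46 and 0.65) were called lower in NSCs and were higher in the S89G-DMP1 astrocyte library. These signs held when the astrocyte counts were scaled by library size alone.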

How the results depend on the processing

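In NSCs, 792 genes were called higher and 981 lower. DESeq2 called 348 and 503, limma on log2(TPM + 1) 38 and 107, and limma on log2(TPM + 0.1) 31 and 85. For the endfoot genes (4 higher, 1 lower), both limma fits called 1 higher and 0 lower, and with a library left out 4 to 5 were called higher and 1 lower. For the related lists (4 higher, 8 lower), DESeq2 called 5 lower, both limma fits 1 higher and 0 lower, and the fits without a library 3 to 5 higher and 5 to 7 lower, the fewest lower (5) without S89G-DMP1 replicate 2. Slc1a2 was called higher without WT replicate 1 (adjusted p = 0.0397, edgeR) or 3 (adjusted p = 0.0303, edgeR). Over all genes, leaving out a library gave 571 to 733 higher and 770 to 926 lower. Triplicate numbers did not pair the libraries, since same-numbered libraries deviated with correlations of 0.03, -0.01 and -0.02. A replicate block gave 829 higher and 1016 lower genes and the same number of calls among the endfoot genes. In astrocytes, asking for 10 counts in both libraries left 1591 of 2713 genes higher, 2 of 5 endfoot genes (the others have under 10 WT counts) and 7 of 13 related genes higher. Asking for 50 counts in either library left 8 of these 13. With log2(FPKM + 1), 1020 of 2010 genes and 3 of 9 related genes were lower, and the log2 ratios of Aqp4 (5.81), Mlc1 (5.99), Hepacam (4.38) and Kcnj10 (3.96) shrank, as this pseudocount exceeds their WT FPKM. Ranks of levels per length matched for 2 (WT) and 4 (S89G-DMP1) of 9 genes with the authors' TPM and for 2 in each genotype with the lengths behind the FPKM values. Where no construction is named, the cause was not tested. Of the single gene values, 251 in NSCs kept their side of the threshold, 49 lost it and 0 reversed, and in astrocytes 33 moved by less than their counting interval and 18 by more.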

Other observations

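The ratio of Kcnj10 to Aqp4 counts, not corrected for length, was 38.7, 22 and 25 in the WT NSC libraries and 13.5, 51.3 and 12.6 in the S89G-DMP1 NSC libraries, which overlap. It was 7.75 in the WT and 0.475 in the S89G-DMP1 astrocyte library. Some low-count partners also differed between the astrocyte libraries. The syntrophin Sntg2 had 0 counts in WT and 20 in S89G-DMP1, Sntg1 had 21 and 1, and the sarcoglycan Sgca had 4 and 38. Kcnj16, called higher in NSCs, had 1 and 18 counts in the astrocyte libraries.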
